A study of Mus musculus with 4 samples.

Results

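Lyve1, Cd209f, Folr2, Cd163, Gas6, Ednrb, Fxyd2 and Npl are 8 genes of resident-type macrophages, taken by symbol from the 27998 genes counted in each library. They were chosen by their counts of unique molecular identifiers (UMIs, tags that mark single captured transcripts) in these libraries, being mostly rare in myeloid cells at day 9 and more abundant at day 12, so their difference between the days is given as a description and without a test. The counts come from 4 droplet single-cell 3' RNA libraries of sorted live CD45+ cells from subcutaneous B16F10-OVA tumours, a mouse melanoma line that carries the model antigen ovalbumin. Every host received 1000000 tumour cells. Hosts were wild-type C57BL/6 mice or miR-155 TCKO mice, in which miR-155 is deleted conditionally in T cells (called knockout here, with the strain field C57BL/6 (WT) in the labels of both), and tumours were taken at day 9 or day 12. Tumours of more than 4 mice were pooled for each library, equal numbers of sorted cells were processed, and each genotype and day has 1 library. No p-value can therefore be given, every interval below is a 95% interval that covers counting error only, and a difference between days cannot be told apart from one between preparation runs. The Cre driver of the conditional knockout and the ages of the mice are not given in the sources used here.

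Resident tissue macrophages are long-lived phagocytes that settle along vessels and in connective tissue, where they take up debris, haemoglobin, hyaluronan and folate. A Lyve1 and Folr2 programme of this kind is known from perivascular macrophages of many mouse organs, and it differs from the programme of macrophages that derive freshly from blood monocytes. In tumours both kinds of cell can be present. The members belong to different functional classes: surface receptors for uptake (Lyve1, Cd209f, Folr2, Cd163), a secreted ligand of the TAM receptor kinases (Gas6), a G protein-coupled receptor for endothelins (Ednrb), a regulatory subunit of the sodium and potassium pump (Fxyd2) and an enzyme of sialic acid breakdown (Npl).

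The genes lie apart in the genome, on mm10 (GRCm38) coordinates of GENCODE vM21. Lyve1 lies on chromosome 7 from 110850607 to 110863239 on the minus strand, and Folr2 lies on the same chromosome from 101839988 to 101857194, also on the minus strand. Cd209f lies on chromosome 8 from 4102787 to 4105835 and Gas6 on chromosome 8 from 13465374 to 13494490, both on the minus strand. Cd163 lies on chromosome 6 from 124304656 to 124330527 on the plus strand. Ednrb lies on chromosome 14 from 103814625 to 103844402 on the minus strand, and Npl on chromosome 1 from 153503015 to 153550045 on the minus strand. Fxyd2 lies on chromosome 9 from 45399669 to 45410278 on the plus strand. All 8 are annotated as protein-coding, and none overlaps another gene on its own strand. Folr2 is overlapped on the other strand by Gm10602 and Gm45319, and Gas6 by Tmem255b.

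Promoter sequence from RefSeq (GRCm38.p6), covering 250 bases before to 50 bases after a gene's start, was at hand for 6 of the 8 genes, with 7 starts in all. The sequences of Cd209f and of the 2 starts of Folr2 are shown because Cd209f was the member confined to the fewest cells and Folr2 the member found in the most. They are written 5′ to 3′ on the gene's strand, and capitals mark matches on either strand to the AP-1 site TGAGTCA or the MAF half-site TGCTGA.
Cd209f, chr8:4105715-4106014, minus strand: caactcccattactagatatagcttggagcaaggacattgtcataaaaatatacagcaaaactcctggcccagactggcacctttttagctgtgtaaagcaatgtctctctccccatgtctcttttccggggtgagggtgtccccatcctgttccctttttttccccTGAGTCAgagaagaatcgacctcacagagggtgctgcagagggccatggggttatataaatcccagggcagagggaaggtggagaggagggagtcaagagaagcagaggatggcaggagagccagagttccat
Folr2, upstream start, chr7:101857141-101857440, minus strand: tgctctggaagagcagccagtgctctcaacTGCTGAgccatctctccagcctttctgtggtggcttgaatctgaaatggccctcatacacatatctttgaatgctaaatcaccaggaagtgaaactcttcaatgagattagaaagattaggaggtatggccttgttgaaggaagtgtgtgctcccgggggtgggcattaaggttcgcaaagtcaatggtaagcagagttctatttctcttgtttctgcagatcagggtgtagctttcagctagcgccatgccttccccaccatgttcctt
Folr2, downstream start, chr7:101845282-101845581, minus strand: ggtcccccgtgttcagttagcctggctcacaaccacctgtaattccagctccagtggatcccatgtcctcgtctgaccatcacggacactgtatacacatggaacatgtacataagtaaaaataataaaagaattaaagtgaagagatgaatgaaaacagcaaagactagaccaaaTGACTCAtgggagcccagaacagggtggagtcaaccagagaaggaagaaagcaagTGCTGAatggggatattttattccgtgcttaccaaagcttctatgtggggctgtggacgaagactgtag
The MAF half-site occurred in 3 of the 7 member promoters, those of Ednrb and both starts of Folr2, and in 19.5% of 32851 mouse promoters of the same length. The AP-1 site occurred in 2 of the 7, those of Cd209f and the downstream start of Folr2, and in 5.20% of all promoters. The E-box CACGTG occurred in 1 of the 7, that of Npl, and in 7.15% of all promoters, while the PU.1 core GAGGAAGT occurred in none of the 7 and in 3.20% of all. None of these motifs overlapped another in the sequences shown. A match is a description of the letters in these windows.

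The libraries held 1778 to 3749 cell barcodes and 18783490 to 33902064 UMIs, and 10934 of 11270 barcodes were kept. Only 66 of 11204 distinct barcodes occurred in more than 1 library. Mir155hg, the host transcript of miR-155, checks the labels: T cells had 107 and 25 UMIs of it in the wild-type libraries of day 9 and day 12 (7.80 and 6.84 UMIs per 1000000, CPM) and 2 and 0 UMIs in the knockout libraries. Macrophages had 0 and 3 UMIs of it in the wild-type and 6 and 0 in the knockout libraries, too few to show its state there. Cells were assigned to classes by gates on marker genes that include none of the 8 members. Macrophages numbered 142 (8.11% of cells) in wild-type and 809 (22.3%) in knockout tumours at day 9, and 1160 (32.6%) and 599 (30.0%) at day 12. The wild-type library of day 9 stood apart, with 58.6% T cells and the fewest macrophages, so its values carry the widest intervals. C1qa and Adgre1, the gene of F4/80, are markers of the macrophage gate, so their presence in gated macrophages was set by the gate. In wild-type and knockout macrophages C1qa was 1671 and 1341 CPM at day 9 and 2698 and 2904 CPM at day 12. Adgre1 lay between 143 and 219 CPM over the libraries. Of all UMIs of each member in kept cells, macrophages held 97.5% for Lyve1, 98.9% for Cd209f, 95.2% for Folr2, 97.1% for Gas6, 86.7% for Npl, 86.5% for Ednrb, 73.8% for Cd163 and 71.8% for Fxyd2.

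At day 9 the members were scarce in macrophages and at day 12 all 8 were more abundant in both genotypes, with the highest level of each in the knockout library of day 12. By the measure used for all genes, a ratio of 2 or more in genes that reached 20 UMIs in the compared libraries together, 8 of 8 members were higher at day 12 in wild-type macrophages, where 7.83% of 9805 genes were, and 8 of 8 in knockout macrophages, where 6.37% of 10211 genes were. Of all genes, 3.91% were at least 2-fold lower at day 12 in wild-type and 4.18% in knockout macrophages, and 0 of the 8 members were. Since this contrast chose the members, those counts describe the choice.

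Among the uptake receptors, Lyve1, a hyaluronan receptor of lymphatic endothelium and resident macrophages, had 0 UMIs in wild-type and 17 in knockout macrophages at day 9, and 426 and 708 at day 12. The levels were 0 and 1.94 CPM at day 9 against 40.2 and 107 CPM at day 12. The wild-type ratio was at least 19.3-fold, taken against a floor of 3 UMIs in the library with none, with a lower 95% limit of 15.6-fold. The knockout ratio was 55.2-fold (34.2 to 95.3). Each ratio written with at least is taken against this floor and leaves out the counting error of the other count. The floor also leaves out the sampling of cells, and 1 missed cell at the wild-type mean of 8.88 Lyve1 UMIs would exceed it. All 17 knockout UMIs of day 9 came from 1 cell of 36774 UMIs, which lay in the Arg1 gate described below and also held 43 Folr2, 13 Gas6 and 17 Npl UMIs. Without the cell with most member UMIs of each library, the knockout log2 ratio of Lyve1 was at least 8.23 in place of 5.79, that of Folr2 5.38 in place of 4.75, and that of Npl 3.47 in place of 3.01. Lyve1 was thus seen in 0 of 142 and 1 of 809 macrophages at day 9 and in 48 of 1160 and 54 of 599 at day 12. The cells that had it at day 12 carried 8.88 UMIs each in wild-type and 13.1 in knockout tumours.

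Cd209f, a C-type lectin of the mouse DC-SIGN family, was not seen in any macrophage of day 9. At day 12 it had 258 UMIs (24.3 CPM) in wild-type and 676 UMIs (102 CPM) in knockout macrophages, at least 11.7-fold and at least 299-fold above the floor of day 9. These UMIs sat in very few cells, 13 in wild-type and 24 in knockout tumours, at 19.8 and 28.2 UMIs per positive cell. In each library 3 cells held 50% or more of the UMIs, and the top cell held 75 and 165 of them. The count of 0 in day 9 allowed up to 2.11% of wild-type and up to 0.371% of knockout macrophages to carry a UMI, by the limit of 3 cells that a count of 0 leaves. The unthinned share of day 12 was 1.12% and 4.01%. The wild-type share lies below its limit of day 9, so a rise in the share of positive cells is not shown in wild-type tumours. At 19.8 and 28.2 UMIs per positive cell, 1 missed cell of day 9 would exceed the floor of 3 UMIs. The values of at least 11.7-fold and at least 299-fold thus bound the counting of UMIs and not the sampling of cells.

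Folr2, the folate receptor beta of macrophages, was the most widespread member. It had 17 UMIs (11.8 CPM) in wild-type and 115 UMIs (13.1 CPM) in knockout macrophages at day 9, and 1903 (180 CPM) and 2336 (353 CPM) at day 12. The day ratio was 15.2-fold (9.47 to 26.2) in wild-type macrophages and 26.9-fold (22.3 to 32.8) in those of knockout hosts. Folr2 was found in 10 of 142 and 33 of 809 cells at day 9 and in 329 of 1160 and 239 of 599 cells at day 12. Of the 115 knockout UMIs of day 9, 43 lay in the cell that held all the Lyve1.

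Cd163, the scavenger receptor for haptoglobin-bound haemoglobin, had 1 UMI in the macrophages of each library of day 9. At day 12 it had 55 UMIs (5.19 CPM) in wild-type and 160 UMIs (24.2 CPM) in knockout macrophages. The ratios, 7.47-fold (1.29 to 300.5) and 212-fold (37.5 to 8428), rest on those single UMIs and are known only to within their wide intervals. Cd163 was found in 20 wild-type and 33 knockout macrophages of day 12.

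Gas6, the ligand of Tyro3, Axl and Mertk that bridges them to dying cells, had 3 UMIs (2.08 CPM) in wild-type and 78 UMIs (8.89 CPM) in knockout macrophages at day 9. At day 12 it had 366 (34.5 CPM) and 778 (117 CPM), a ratio of 16.6-fold (5.63 to 80.8) in wild-type and 13.2-fold (10.5 to 16.9) in knockout macrophages. Positive cells numbered 2 and 25 at day 9 and 102 and 126 at day 12, so Gas6 was spread over many more cells than Cd209f.

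Ednrb, the endothelin receptor type B, had 3 UMIs (2.08 CPM) and 60 UMIs (6.84 CPM) at day 9, and 194 (18.3 CPM) and 511 (77.2 CPM) at day 12. Its day ratio was 8.79-fold (2.96 to 43.0) in wild-type and 11.3-fold (8.63 to 15) in knockout macrophages. Ednrb is also a gene of the melanocyte lineage, and the injected tumour is a melanoma. The 5 melanoma transcripts Pmel, Mlana, Dct, Tyrp1 and Tyr summed to 8.33 and 14.9 CPM in macrophages of day 9 and to 20.6 and 26.0 CPM at day 12, in wild-type and knockout libraries, with Tyr at 0 in wild-type macrophages of day 9. Without any cell that carried a UMI of these, the log2 day ratio of Ednrb was 3.63 in wild-type and 3.60 in knockout macrophages, against 3.14 and 3.5 with them.

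Fxyd2, the gamma subunit of the sodium and potassium pump, had 0 UMIs in wild-type and 11 (1.25 CPM) in knockout macrophages at day 9, and 104 (9.81 CPM) and 301 (45.5 CPM) at day 12. The ratios were at least 4.71-fold and 36.3-fold (20 to 73.4). Npl, the lyase that opens N-acetylneuraminic acid, had 0 and 56 UMIs (6.38 CPM) at day 9, and 159 (15 CPM) and 340 (51.3 CPM) at day 12. Its ratios were at least 7.20-fold in wild-type and 8.05-fold (6.05 to 10.9) in knockout macrophages.

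**Figure D1:**
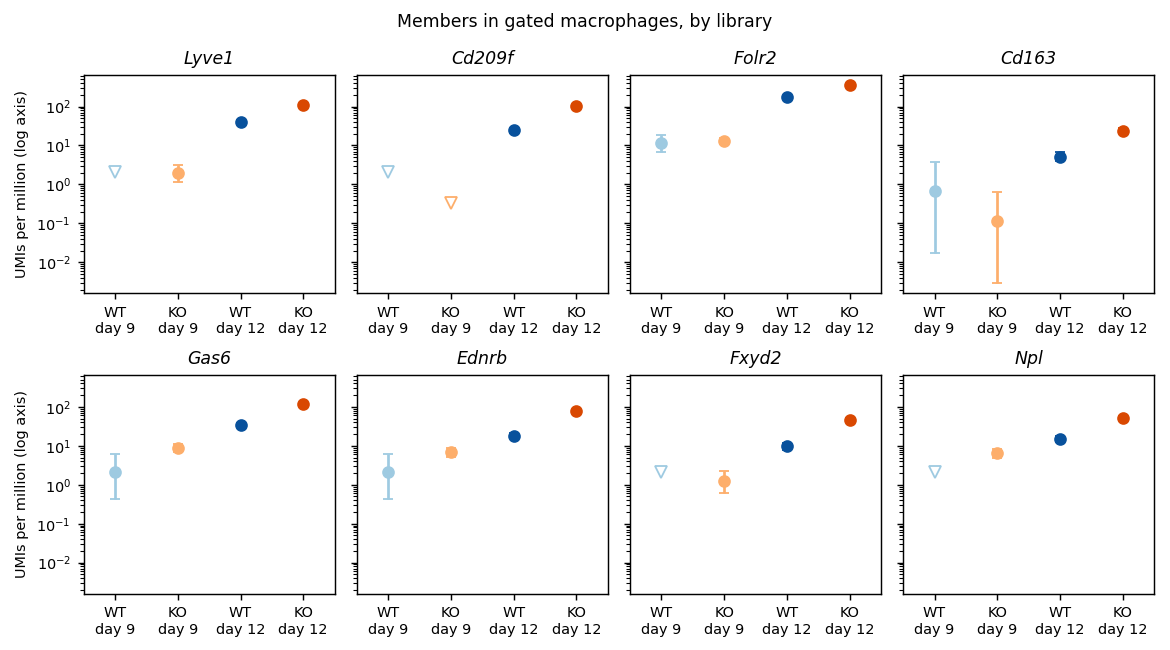
Level of each member in gated macrophages of the 4 libraries (WT, wild-type, and KO, knockout, at day 9 and day 12), in UMIs per 1000000 UMIs on a log axis. Points are single libraries with exact Poisson 95% intervals, and open triangles mark a count of 0, drawn at the level of 3 UMIs. Every member was highest in the knockout library of day 12.

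The genotype contrasts use the same counts as the day contrast that chose the members, and they too compare single libraries. The counts of members below are therefore a description. At day 12, 7 of the 8 members were at least 2-fold higher in knockout than in wild-type macrophages, where 3.25% of 10358 genes were at least 2-fold higher and 4.87% at least 2-fold different. The ratio was 4.66-fold (3.41 to 6.45) for Cd163, 4.63-fold (3.70 to 5.85) for Fxyd2, 4.22-fold (3.57 to 5) for Ednrb and 4.19-fold (3.63 to 4.86) for Cd209f. These intervals count UMIs and do not cover the sampling of cells, which for Cd209f were 13 wild-type and 24 knockout positive cells. Gas6 and Npl lay at 3.40-fold (3 to 3.86) and 3.42-fold (2.83 to 4.16), and Lyve1 at 2.66-fold (2.36 to 3.01). Folr2 was the exception, at 1.96-fold (1.85 to 2.09), just short of 2-fold. Of all genes, 1.61% were at least 2-fold lower in the knockout library, and 0 of the members were. With cells thinned to 2000 UMIs, the log2 ratio of Lyve1 fell short of 2-fold, at 0.87 in place of 1.41. At day 9 only Folr2, Gas6, Ednrb and Npl reached 20 UMIs over the pair. Gas6, Ednrb and Npl did so through the knockout library alone, so their number is not read as a result. Of 9484 genes, 7.21% were at least 2-fold higher in that library, 4.58% lower and 11.8% different in either direction. Gas6 was 4.27-fold higher (1.41 to 21.1), Ednrb 3.28-fold (1.07 to 16.4) and Npl at least 3.06-fold. Without cells that carried melanoma transcripts, the bound for Npl was 0.85 on the log2 scale, below 2-fold. Among macrophages with a Mrc1 UMI, Ednrb had 0 UMIs in the wild-type library and its bound was 1.86-fold, also below 2-fold. Folr2 had a ratio of 1.11 (0.664 to 1.97), an interval that includes 1. The macrophages also differed between genotypes in their content of classical monocyte transcripts (Ly6c2, Chil3, Plac8, Hp and Vcan among them), whose median was 92.3 and 39.4 per 10000 UMIs at day 9 and 72.3 and 38.4 at day 12 in wild-type and knockout libraries. The part of that content in the genotype difference was not tested.

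Shares of cells with a UMI depend on depth, so each cell was thinned to 2000 UMIs, a depth that no macrophage or T cell fell below. A UMI of at least 1 member was then present at day 9 in 2.11% of wild-type macrophages (0.438% to 6.05%) and in 3.58% of those from knockout hosts (2.41% to 5.11%). At day 12 the shares were 18.2% (16% to 20.5%) and 27.7% (24.2% to 31.5%). T cells, set beside them as a class not known for these genes, gave 0.389% and 0.107% at day 9 and 1.28% and 1.36% at day 12. In wild-type tumours of day 9, T cells held 22 of 25 Npl UMIs, 5 of 7 of Cd163 and 6 of 11 of Ednrb. Macrophages there held 0, 1 and 3 of these. The T cells of that library had 13720264 UMIs in all, against 1440249 in its macrophages. For Npl the T cell level was 1.60 CPM, and the 0 in macrophages allows up to 2.56 CPM, so T cells are not shown to be higher. Median depths before thinning were 8726 to 10073 UMIs in macrophages and 3679 to 10229 in T cells. Without thinning, 9.86% and 11.7% of macrophages had a member at day 9 and 34.7% and 48.9% at day 12, the knockout share second each time. Thinned T cells had Folr2 in at most 0.709% of cells, against 15.3% and 22.7% of macrophages of day 12.

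Several members were found in the same cells. Macrophages with UMIs of at least 2 members numbered 2 of 142 and 21 of 809 at day 9, against 135 of 1160 (11.6%) and 156 of 599 (26.0%) at day 12. Cells with at least 4 members numbered 0, 2, 45 and 71, and cells with at least 6 numbered 0, 1, 23 and 45, in the same order of libraries. All 8 members were detected together in 3 wild-type and 10 knockout cells, both of day 12. The 45 knockout cells with at least 6 members, 7.51% of the macrophages, held 99.4% of the Cd209f UMIs, 93.8% of Cd163, 89.4% of Fxyd2 and 88.1% of Lyve1, but 52.9% of Folr2. For Npl, Ednrb and Gas6 the share was 63.8%, 66.3% and 68.5%. The 23 such wild-type cells held 98.8% of Cd209f, 82.4% of Lyve1, 56.4% of Cd163, 56.2% of Ednrb, 45.2% of Fxyd2, 41.5% of Npl, 36.9% of Gas6 and 23.1% of Folr2. Such cells were also deeper, with a median of 12702 UMIs in wild-type and 15608 in knockout libraries against 8096 and 7961.5 in macrophages with no member. Thinned to 2000 UMIs, at least 2 members were found in 0, 3, 59 and 80 macrophages, and at least 6 in 0, 0, 2 and 10.

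**Figure D2:**
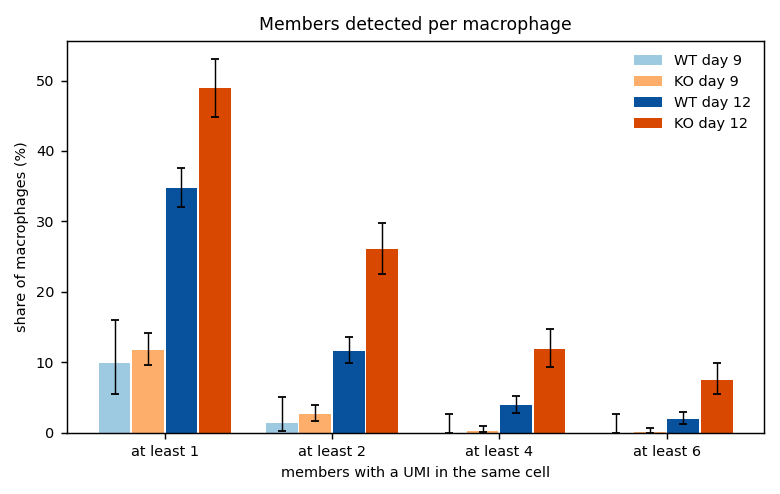
Share of macrophages (%) with UMIs of at least 1, 2, 4 or 6 members in the same cell, without thinning, by library. Bars start at 0 and carry exact binomial 95% intervals for counting error. Cells with at least 4 members made up 3.88% of wild-type and 11.9% of knockout macrophages at day 12.

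Of the 48 Lyve1 macrophages of wild-type tumours at day 12, 43 (89.6%) had a Folr2 UMI, 37 (77.1%) Gas6, 33 (68.8%) Ednrb and 30 (62.5%) Npl, against 25.7%, 5.85%, 3.96% and 3.87% of macrophages without Lyve1. Cd209f was found in 10 of the 48 (20.8%) and Cd163 in 9 (18.8%). Read from the other side, 43 of 329 Folr2 macrophages (13.1%) had Lyve1. In knockout tumours, 53 of 54 Lyve1 macrophages (98.1%) had Folr2, 51 (94.4%) Gas6, 49 (90.7%) Ednrb, 47 (87.0%) Npl, 41 (75.9%) Fxyd2, 22 (40.7%) Cd163 and 18 (33.3%) Cd209f. There 53 of 239 Folr2 macrophages (22.2%) had Lyve1. Lyve1 cells were thus mostly contained in the Folr2 cells, and not the reverse. The Lyve1 cells were deeper than the others in both libraries, with a median of 11743.5 against 8654 UMIs in wild-type and 15962 against 9773 in knockout tumours.

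Lyve1 macrophages with Cd209f differed from those without it in some genes and not in others. In wild-type tumours of day 12, the 10 cells with both genes had 188 CPM of Cd163 (122 to 277), against 32.7 CPM (17.9 to 54.9) in the 38 with Lyve1 alone. Fxyd2 was 210 CPM against 70.2 CPM, and Ednrb 466 against 150 CPM. In knockout tumours the 18 cells with both genes had 386 CPM of Cd163 against 52.5 CPM in the 36 others, 651 against 113 CPM of Fxyd2, and 534 against 328 CPM of Ednrb. Folr2 differed less, at 1308 against 1195 CPM in wild-type and 1908 against 1426 CPM in knockout tumours. Gas6 was 376 against 332 CPM in wild-type, with overlapping intervals, and 851 against 523 CPM in knockout tumours. Cbr2 was 985 against 861 CPM and 1250 against 1287 CPM. Ccr2 changed direction, at 52.6 against 295 CPM in wild-type and 279 against 213 CPM in knockout tumours. Timd4, a receptor for phosphatidylserine on long-resident macrophages, had 10 and 3 UMIs in the cells with both genes and 0 in the cells with Lyve1 alone, in wild-type and knockout libraries. Ly6c2, a gene of classical monocytes, was 165 CPM in wild-type cells with both genes, 1284 CPM with Lyve1 alone and 2966 CPM in macrophages without Lyve1, and in knockout cells it was 258, 315 and 1414 CPM. H2-Aa, an MHC class II gene, was 203, 2101 and 7270 CPM in the wild-type library and 1674, 1139 and 6431 CPM in the knockout library, so the cells with both genes were lowest in wild-type tumours only. Mki67, a gene of dividing cells, had 0 UMIs in the cells with both genes, which allows up to 27.7 CPM in wild-type and 12.7 CPM in knockout tumours. It was 16.4 and 82.0 CPM with Lyve1 alone and 8.96 and 8.74 CPM without Lyve1. The counts of 0 thus do not show a level below that of macrophages without Lyve1. The cells with both genes are few, and cells of 1 library are not replicates.

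**Figure D3:**
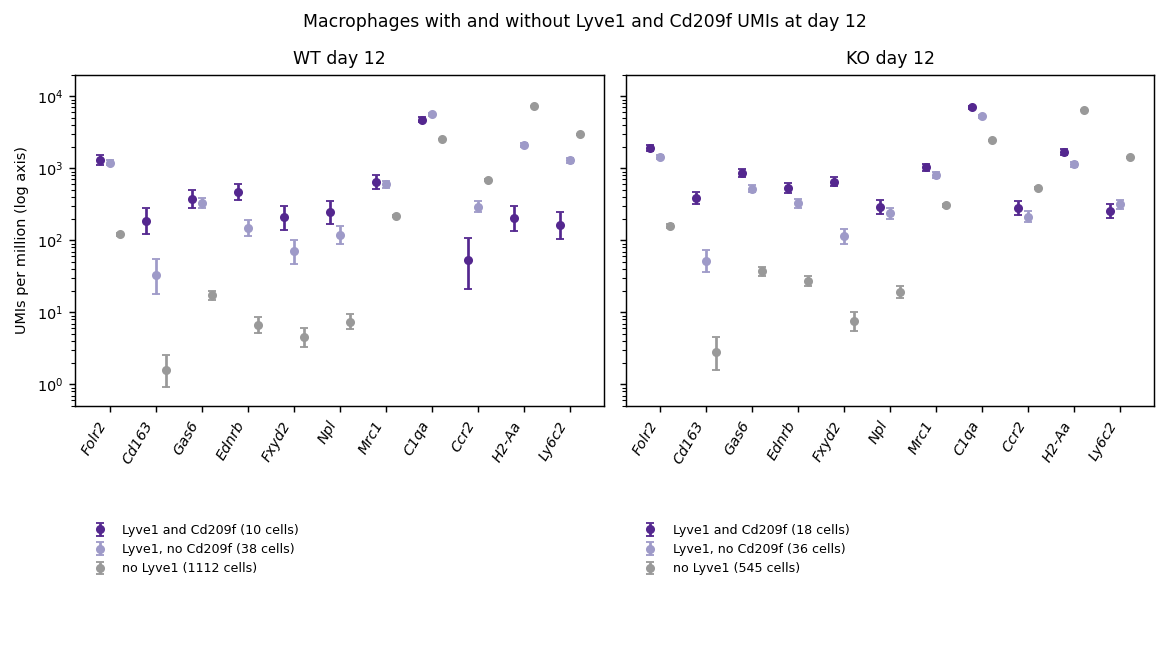
Levels in day-12 macrophages split by UMIs of Lyve1 and Cd209f, in UMIs per 1000000 UMIs of each set of cells on a log axis, for the wild-type and knockout libraries. Points are sums over the cells named in the legend with exact Poisson 95% intervals. Cd163 stood at 188 and 386 CPM in cells with both genes and at 1.59 and 2.80 CPM in cells without Lyve1.

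Macrophages were further divided by marker gates for Arg1, for Spp1 and Trem2, for Cxcl9 and Cxcl10, for Gbp2b and Il18bp and for Mrc1, assigned in that order. In knockout tumours of day 12 the Mrc1 gate held 215 of 599 macrophages (35.9%) and 626 of 708 Lyve1 UMIs, 668 of 676 Cd209f UMIs, 154 of 160 Cd163 UMIs and 278 of 301 Fxyd2 UMIs. In wild-type tumours of day 12 the same genes were split between the Mrc1 gate, with 241 of 1160 macrophages (20.8%), and the Gbp2b and Il18bp gate, with 399 (34.4%). The Mrc1 gate held 185 of 426 Lyve1 UMIs and 121 of 258 of Cd209f, and the Gbp2b and Il18bp gate held 228 and 137. The Mrc1 gate came last, so cells of the earlier gates could also carry Mrc1. The 752 wild-type macrophages of day 12 with a Mrc1 UMI, in any gate, held 417 of the Lyve1 and 258 of the Cd209f UMIs. The knockout library had 29 cells (4.84%) in the Gbp2b and Il18bp gate. Gas6 and Npl were also found in Spp1 and Trem2 macrophages, at 56.5 and 45.2 CPM in wild-type and 90.6 and 51.2 CPM in knockout tumours of day 12. Folr2 was found in knockout Arg1 macrophages of day 12 at 219 CPM, in 43 of 94 cells.

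At day 9, in the knockout library the Spp1 and Trem2 gate held 50 of 78 Gas6 UMIs, 49 of 115 Folr2 UMIs and 26 of 56 Npl UMIs, while the Mrc1 gate, with 35 cells, held 4, 6 and 3. The Arg1 gate held 55 Folr2 UMIs and 25 of 60 Ednrb UMIs. In the wild-type library the Gbp2b and Il18bp gate held 13 of the 17 Folr2 UMIs. Within macrophages that had a Mrc1 UMI, a set chosen after seeing the data (41, 231, 752 and 446 cells), Lyve1 was still 0 and 4.93 CPM at day 9 against 56.1 and 129 CPM at day 12. The knockout ratio of Lyve1 was 26.2-fold there, beside 55.2-fold in all macrophages. Folr2 was 8.80-fold higher at day 12 in wild-type (5.02 to 17.1) and 13.9-fold higher in knockout tumours (11.4 to 17.1), beside 15.2-fold and 26.9-fold. Gas6 was 10.9-fold (2.99 to 90.1) and 6.57-fold (5.17 to 8.46) higher, beside 16.6-fold and 13.2-fold. The wild-type ratio of Cd163 was 3.24-fold (0.558 to 130), an interval that includes 1.

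**Figure D4:**
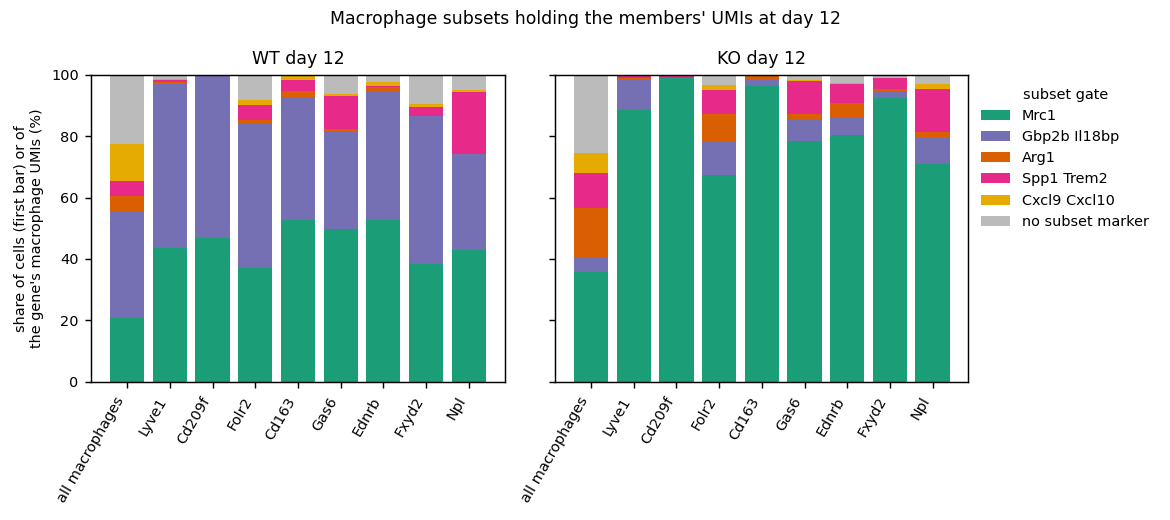
Share (%) of macrophages in each subset gate (first bar) and of each member's macrophage UMIs in that gate (other bars), for the wild-type and knockout libraries of day 12. The Mrc1 gate held 35.9% of knockout macrophages and most UMIs of every member there, while in wild-type tumours the Mrc1 and the Gbp2b and Il18bp gates shared them. Each cell went to the first gate it met, with Mrc1 last, and the shares depend on the number of cells in each gate.

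Outside the macrophages, all 8 members had UMIs in other gated classes, and those of Fxyd2, Cd163, Ednrb and Folr2 are described here. Npl had 29 of its 640 UMIs in monocytes and 29 in T cells. Fxyd2 was present in mature dendritic cells, marked by Ccr7, Fscn1 and Ccl22, in all 4 libraries. It had 12, 15, 29 and 52 UMIs there, at 32.9 CPM (17.0 to 57.5) and 23.0 CPM (12.9 to 38.0) at day 9 and 31.7 CPM (21.2 to 45.5) and 35.2 CPM (26.3 to 46.1) at day 12, in wild-type and knockout tumours. These intervals overlap, and 18.8% to 23.7% of mature dendritic cells had a UMI. In the wild-type library of day 9, where macrophages had none, mature dendritic cells held 48.0% of all Fxyd2 UMIs. Cd163 was present in plasmacytoid dendritic cells of the knockout library at day 9, with 18 UMIs in 16 of 165 cells (15.4 CPM, 9.14 to 24.4), against 1 UMI in the macrophages of that library. These 165 cells had Siglech, a marker of that gate, at 79.7 CPM, against 982 to 2464 CPM in the same gate of the other libraries. Of the other gate markers, Ccr9 was 987 CPM and Cox6a2 2228 CPM in them. The other libraries had 22, 15 and 11 such cells. Ednrb was present in monocytes, with 33 UMIs (3.8 CPM) in the knockout library at day 9, and 17 (3.26 CPM) and 31 (10.2 CPM) in the wild-type and knockout libraries at day 12. Folr2 in monocytes was 10.9 CPM and 22.1 CPM at day 12 and 0 and 0.922 CPM at day 9. Monocytes and macrophages form a continuum, and 928 of 4770 such cells (19.5%) lay near the macrophage threshold, between 20 and 45 marker UMIs per 10000. Lyve1 and Prox1 also mark lymphatic endothelium. Endothelial markers summed to 5.24 to 8.02 CPM in macrophages, with Cldn5 at 0 in all 4 libraries and Prox1 at 0 in 3, and to 3.67 and 3.86 CPM in wild-type and knockout macrophages of day 12 with at least 2 members. Fibroblast and pericyte markers had 0 UMIs in macrophages of day 9 and summed to 1.60 and 3.02 CPM in those of day 12. At day 12 they stood at 3.67 CPM in wild-type cells with at least 2 members and 1.26 CPM in those with none, and at 6.43 and 1.49 CPM in the same knockout cells, where the cells with members held 15 of the 20 UMIs. Lum and Pdgfra were at 0 throughout, and the part of such transcripts in the members' levels was not tested.

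**Figure D5:**
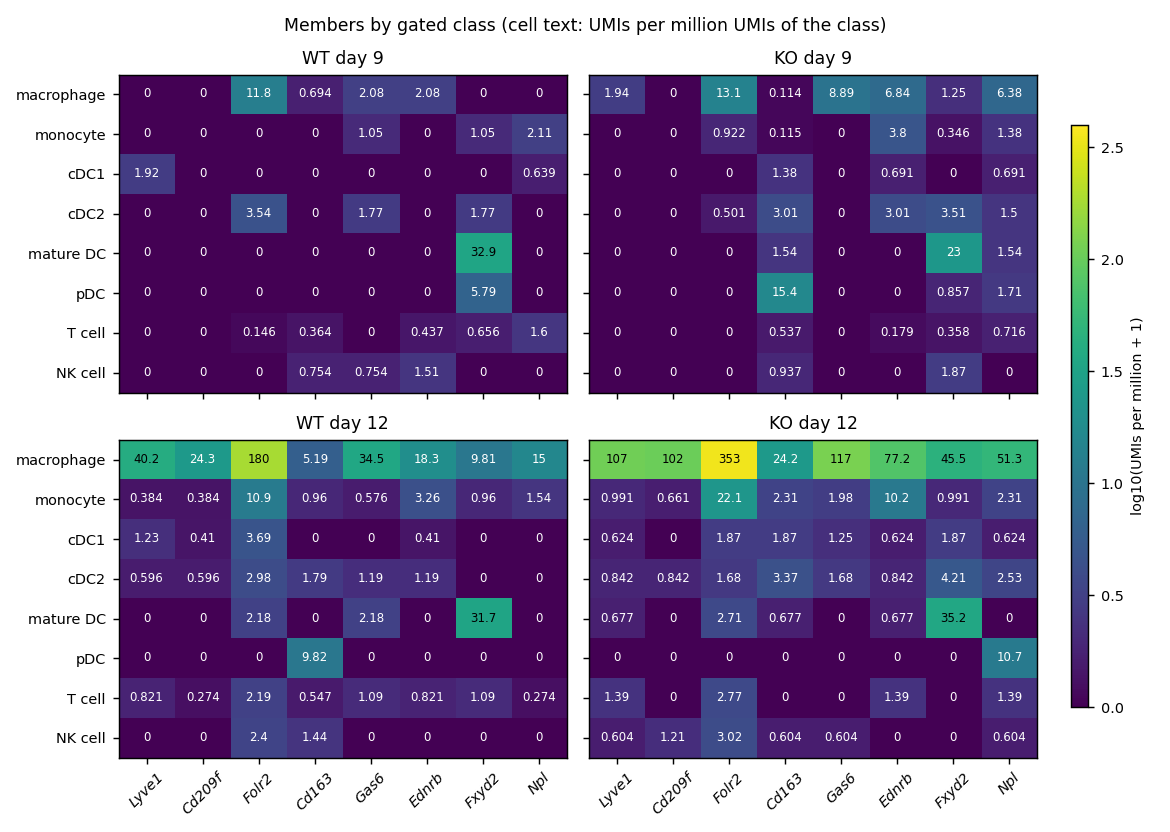
Level of each member in 8 gated classes of the 4 libraries, as UMIs per 1000000 UMIs of the class, with colour on the scale log10(value + 1). Most members are near 0 outside macrophages, whereas in monocytes Folr2 reaches 22.1 and Ednrb 10.2, both in the knockout library of day 12. Fxyd2 lies between 23.0 and 35.2 in mature dendritic cells of every library.

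A list of 29 further genes of resident and perivascular macrophages was chosen with earlier results of these data known, so its counts are a description. Of the 25 with enough UMIs, 17 were at least 2-fold higher at day 12 in wild-type macrophages, beside 7.83% of all genes. In knockout macrophages 17 of 24 were, beside 6.37% of all genes. Of these genes 0 were 2-fold lower, and 12 were higher in both genotypes. The median log2 ratio was 1.78 in wild-type and 2.23 in knockout macrophages, where that of all genes was 0.02 and 0.00. Fcna, a ficolin, was 0.694 and 1.48 CPM at day 9 and 11.7 and 52.2 CPM at day 12. Cbr2, a carbonyl reductase, was 14.6 and 13.7 CPM against 119 and 271 CPM, and Ltc4s, the leukotriene C4 synthase, 3.47 and 2.73 CPM against 32.6 and 87.9 CPM. Cd209g, a relative of Cd209f, was 0.694 and 0 CPM against 5.66 and 36.4 CPM. Between genotypes at day 12, 13 of 26 were at least 2-fold higher in the knockout library and 0 lower, beside 3.25% and 1.61% of all genes, with a median log2 ratio of 0.99 against 0.01 for all genes. At day 9, 5 of 21 were higher in the knockout library and 3 lower, with a median log2 ratio of 0.22.

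The other lists, chosen in the same way, are read beside the same background, 7.83% and 6.37% of all genes higher and 3.91% and 4.18% lower at day 12. Of the Gas6 receptors and relatives, 1 of 5 was at least 2-fold higher at day 12 in wild-type and 1 of 6 in knockout macrophages, and 0 of 5 and 1 of 6 were lower. Mertk, a receptor of Gas6, was 2.22-fold higher in wild-type (1.27 to 4.23) and 3.09-fold higher in knockout macrophages (2.35 to 4.09) at day 12. Axl was 0.788-fold (0.614 to 1.02) and 0.481-fold (0.423 to 0.546), Pros1, a related ligand, was 0.683-fold and 1.30-fold, Vkorc1, the vitamin K reductase that serves Gas6 maturation, was 1.67-fold and 1.54-fold, and Tyro3 had 0 UMIs in every library. Within the Cd209 family, 1 of 3 tested genes was higher in wild-type and 2 of 3 in knockout macrophages, and 0 were lower. Cd209d was 1.99-fold (0.639 to 10) and 6.33-fold (3.97 to 10.5), and Cd209a, which is also a gene of dendritic cells, was 1.01-fold and 1.23-fold. Among genes of haemoglobin and iron handling with Cd163, 0 of 15 were 2-fold higher in wild-type and 1 of 15 in knockout macrophages, and 1 and 2 were lower. Hp, haptoglobin, was 0.409-fold and 0.345-fold, and Hp is also 1 of the monocyte markers above. Trf, transferrin, was 0.571-fold and 0.763-fold between days and 3.05-fold (2.77 to 3.37) between genotypes at day 12. Of the sialic acid genes with Npl, 0 of 13 reached 2-fold in either direction in either genotype, with Gnpda1, Nagk and Slc17a5 between 1.5-fold and 1.69-fold. For folate, 4 of 12 genes were at least 2-fold higher in wild-type and 1 of 12 in knockout macrophages, and 0 and 1 were lower. Slc46a1, the proton-coupled folate transporter, was 3.53-fold (0.580 to 145) and 1.55-fold (0.864 to 2.79). Of 3 tested genes of the endothelin system, 0 were higher in either genotype, and 0 in wild-type and 1 in knockout macrophages lower. Edn1, the gene of endothelin 1, was 1.38-fold (0.666 to 3.29) in wild-type and 0.331-fold (0.140 to 0.701) in knockout macrophages at day 12, and 0.178-fold (0.0785 to 0.355) in knockout against wild-type macrophages of day 12. Among hyaluronan genes, 1 of 6 was at least 2-fold higher in wild-type, Stab1 at 4.57-fold (2.83 to 7.90), and 2 of 6 in knockout macrophages, with 0 lower in both, and Cd44, the common hyaluronan receptor, was 0.749-fold and 0.876-fold.

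The genes most like the members were found by the correlation of log2(CPM + 1) with the mean of the members' standardised levels over 29 sums of a class in a library, each of at least 50 cells. These sums share libraries, depth and classes, so the correlation is a description. Among 10106 genes the highest were Cd209g (r = 0.93), Fcna (0.88), Igf1 (0.85), Prune2 (0.84), Ap2m1 (0.84), Pmp22 (0.83), Cbr2 (0.83), Fblim1 (0.83), Etv1 (0.83) and Psd3 (0.82). Taken 1 member at a time, Cd209g was closest to Lyve1, Cd209f (0.97) and Gas6, Ccl8 to Folr2 (0.91), Igf1 to Ednrb (0.90) and Npl (0.85), Tspan3 to Fxyd2 (0.83) and 0610009B22Rik to Cd163 (0.75). Among the members themselves the closest pair was Lyve1 and Cd209f (0.95), and Fxyd2 was the least like the others, with 0.34 to 0.49.

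Macrophages of day 12 with UMIs of at least 2 members were set beside those with none, 135 against 757 cells in wild-type and 156 against 306 in knockout tumours. Of 8541 genes, 483 were at least 2-fold higher in the cells with members in both libraries and 239 at most 0.5-fold. The highest, ranked by the lower ratio, were Cd209g (at least 77.8-fold and at least 92.3-fold), Fcna (72.6-fold and 97.4-fold), Igfbp4 (49.1-fold and 35.2-fold), Cbr2 (34.4-fold and 36.6-fold) and Cela1 (39.9-fold and 32-fold). Tslp, Cp, Rcn3, Gm16104, Serpinb6a, Scamp5, Sult1a1, Ccl8, Pdgfc and Prune2 followed, the last at 15-fold and 18.4-fold. Ccl8, a chemokine, was 3317 against 200.4 CPM in wild-type and 4828 against 101 CPM in knockout tumours. The classical monocyte markers were lower in the cells with members, at a median of 28.6 against 90.0 per 10000 UMIs in wild-type and 25.7 against 54.1 in knockout tumours. Their part in these ratios was not tested.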

How the data were processed

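The authors counted UMIs per gene and cell barcode with Cell Ranger 2.0.2 on mm10, per the submitters' processing notes, and deposited raw counts for barcodes already filtered. Barcodes were kept with at least 200 genes, at most 10% mitochondrial UMIs and at most 5% haemoglobin UMIs. Scrublet (scanpy 1.11.5) called 32 of 11270 barcodes at its own threshold, too few to be used, so its highest scores were removed at 0.8% per 1000 barcodes. Cells were gated on summed marker UMIs per 10000 UMIs (macrophages at least 30), with thresholds set after the data were seen. Levels are the UMIs of a gene over all cells of a class, per 1000000 UMIs of that class (CPM). Intervals are exact Poisson for counts, Clopper-Pearson for shares and exact conditional for ratios, all at 95%. Ratios needed 20 UMIs over a pair, and a count of 0 was taken as 3 UMIs. The ratio and its interval were tested on simulated counts. The members and all lists were chosen with earlier results of these data known. Named beside the members were up to 4 genes of each list with the largest day ratio, the 10 genes most like the members, the closest gene to each member and 15 companion genes, by rule. Other genes (Timd4, Ly6c2, H2-Aa, Mki67, Ccr2, Tyro3 and the marker genes) were named after their values were seen. Values of some genes on the lists are not reported here.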

Additional observations from a re-analysis of the deposited data

Results flagged for a closer look

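Signals of 3 members in gated T cells, a class outside the comparisons of macrophages, had a 95% counting interval that lay wholly above the 3 UMIs that a count of 0 allows. Counts of other members in lymphocytes exceeded 3 UMIs without their interval doing so, as for Ednrb at 0.437 CPM and Cd163 at 0.364 CPM in T cells of the wild-type library at day 9. Npl had 22 UMIs in 17 of 1027 T cells of the wild-type library at day 9 (1.60 CPM, 1.00 to 2.43). The macrophages of that library had 0 UMIs, which allows up to 2.56 CPM. Fxyd2 had 9 UMIs in 7 of the same 1027 T cells (0.656 CPM, 0.300 to 1.25). Folr2 had 8 UMIs in 8 of 705 T cells of the wild-type library at day 12 (2.19 CPM, 0.945 to 4.31), beside 180 CPM in the macrophages of that library.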

How the results depend on the processing

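No paired analysis was possible because each genotype and day has 1 library. The counts of members at least 2-fold higher at day 12 stayed at 8 of 8 in both genotypes under each alternative except thinning each cell to 2000 UMIs, which left fewer UMIs and gave 3 of 6 in wild-type and 7 of 7 in knockout macrophages. Over the alternatives, the lowest wild-type log2 day ratio was 0.24 for Cd209f, a bound, and 0.38 for Ednrb, in place of 3.55 and 3.14. For Folr2 and Gas6 it was 3.14 and 2.85. The count between genotypes at day 9, 3 of 4, became 0 of 1 with thinning, 2 of 4 without cells with melanoma transcripts or among macrophages with a Mrc1 UMI, and 7 of 8 with no minimum and 0.5 UMIs added. That last count takes either direction and includes Cd209f and Cd163, whose equal counts of 0 and 0 and of 1 and 1 UMIs come out lower in the larger knockout library. The shares of macrophages with a member, 2.11%, 3.58%, 18.2% and 27.7%, were 9.86%, 11.7%, 34.7% and 48.9% without thinning. Folr2 between genotypes at day 9 had a log2 ratio of 0.15 and reversed to -0.040 with monocytes and macrophages together, to -0.50 without cells with melanoma transcripts and to -0.74 with thinning. At day 12 it reached 2-fold with at most 5% mitochondrial UMIs or with monocytes included, giving 8 of 8. Of 357 alternative values for 28 ratios, 305 lay within the 95% counting interval of the ratio given (for a bound, above that interval's lower end), 49 lay outside it and 3 reversed, and the cause of those shifts was not tested. Leaving out the cell with most member UMIs of each library and taking only macrophages with a Mrc1 UMI were added after seeing the data. In the wild-type library of day 9, 0 of 142 macrophages allows a share of cells with a UMI of up to 2.11%.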
